A study of Mus musculus with 6 samples.

Results

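The 3 untreated libraries of mouse Lgr5-GFP high crypt cells are described here across all 23127 genes of the table. They were chosen by their labels, as 3 of the 6 libraries of the study; the other 3 were exposed to interferon gamma (IFNg, 1 ng/ml for 1.5 h). All 6 were made from small-intestinal cells of C57BL/6 mice sorted for high Lgr5-GFP, a fluorescent reporter of the gene Lgr5, and the medium of the study held EGF, Noggin and R-spondin1. The untreated libraries are called untreated 5, untreated 1 and untreated 9 after the end numbers of their titles. Their titles carry a tag, GFP1 for untreated 5 and GFP3 for untreated 1 and untreated 9, of unstated meaning. The titles of all 6 libraries also hold 1.5, the hours of exposure in the IFNg libraries. What it stands for in the untreated libraries is not stated. Also unstated are the reporter allele, the age and sex of the mice, whether the libraries came from separate animals, or whether the untreated cells stood in medium before lysis. The sex-linked genes of untreated 1 differed from those of the other 2.

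Crypts of the small intestine hold stem cells at their base, wedged between Paneth cells that make antimicrobial peptides and Wnt ligands. The stem cells receive Wnt, R-spondin, EGF and Notch signals, and BMP signalling restrains them. Their daughters divide in the crypt and become enterocytes or secretory cells, which are goblet, enteroendocrine, tuft and Paneth cells. Lgr5, a receptor for R-spondins, marks the cells at the crypt base.

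Values are scaled counts, in which the reads of a library are divided by 1 size factor, and they compare 1 gene between libraries. To compare genes with each other, each scaled count was divided by the gene's merged exon length and rescaled to a total of 1000000 per library; this per-length value is called the level. Where a gene is said to lead a list, the order is that of mean level over the 3 libraries. Untreated 5, 1 and 9 held 28508762, 40224497 and 30487312 reads in genes, so that 1 read was worth 1.05, 0.860 and 1.03 scaled counts. A count of 0 allowed up to 3 reads, which is 3.16, 2.58 and 3.09 scaled counts. All spreads are over these 3 libraries and may be technical, and there is no test in what follows, because it concerns a single group.

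The 4 genes given as markers of these cells were read in every library. Olfm4, a secreted glycoprotein of crypt base cells (chromosome 14, 79984081 to 80023139, mm10), had 219689, 262029 and 266604 scaled counts in untreated 5, 1 and 9. It was the second most abundant gene by mean scaled count and the first among nuclear genes, with a CV of 10.4%. Lgr5 had 2801, 8499 and 5366 scaled counts, lowest in untreated 5. Its level was 50.3 ± 28.5 (SD, n = 3), which placed it above 86.0% of genes. Smoc2, a secreted calcium-binding matrix protein, had 13873, 9703 and 5648, the opposite order of untreated 5 and untreated 9. Ascl2, a Wnt-controlled transcription factor of the stem cells, had 702, 193 and 180, high in untreated 5 and close in the other 2. The level of Olfm4 was thus 272, 107 and 172 times that of Lgr5 in untreated 5, 1 and 9. With the longest transcript as the length, the level of Lgr5 was 85.5 in place of 50.3. Without untreated 5, that of Ascl2 was 10.8 in place of 19.6.

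Over the whole list of 23 crypt base genes, all averaged 10 scaled counts or more, where 15989 of 23127 genes did. Of the list, 15 had a mean of at least 1000, where 5631 of the 23127 did. The median level of the list was 50.3, and the median over all 15989 genes was 9.56. After Olfm4, the highest levels were those of Prom1, a membrane glycoprotein of protrusions, with 28075, 52241 and 33298 scaled counts, and Gkn3, a gastrokine, with 3816, 2318 and 3094. The lowest by level was Msi1, an RNA-binding protein, with 79.0, 44.7 and 45.3 scaled counts. Axin2 and Znrf3, feedback inhibitors of Wnt signalling, were nearly level across the libraries, at 431, 430 and 410 and at 362, 423 and 403 scaled counts. Of the 23 members, 13 were lowest in untreated 5, where 39.0% of all 15989 genes were, and 9 were highest there, where 41.4% of all genes were. Untreated 1 was highest for 11, against 37.1%, and untreated 9 for 3, against 21.5%.

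Genes of cell division were present throughout. All 16 G2/M genes and all 16 S phase genes averaged 10 scaled counts or more, where 15989 of 23127 genes did. In each list 14 reached 1000, where 5631 of the 23127 did. Ccnb2, a mitotic cyclin, had 4180, 3618 and 2925 scaled counts, and Top2a, the topoisomerase that untangles chromosomes, had 9242, 10945 and 8098. Mcm6, a subunit of the replicative helicase, had 14005, 13010 and 6392. Untreated 1 was highest for 10 of the 16 S phase genes, against 37.1% of all 15989 genes, and untreated 9 was lowest for 11 of 16, against 32.2%. Of the G2/M genes, 10 were highest in untreated 5, against 41.4% of all genes, and none in untreated 9.

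Many promoters of these genes carry a shared short sequence, shown here because the G2/M and MHC class II lists held it in all or all but 1 of their promoters. A CCAAT box, searched as CCAAT and its reverse complement ATTGG in the 250 bases before the RefSeq start site (GRCm38.p6), was in 12 of the 13 G2/M genes with a single promoter entry and in 9 of 13 S phase genes. It was in 6 of 6 MHC class II genes with an entry, 2 of which (H2-Oa and H2-Ob) were under 10 scaled counts, in 35.9% of the 10894 genes of the table with a single entry and in 34.7% of the 22862 single entries of the reference. Other lists held it in over 50% of their entries too, such as Paneth genes in 6 of 9, intestinal transcription factors in 6 of 10 and Hox genes in 6 of 11. Crypt base genes held it in 5 of 12, near the share over all genes. Birc5, the survivin of the dividing spindle, was the G2/M gene without it. The 130 bases before the start are printed 5′ to 3′ on the gene's own strand, for windows that touch no annotated exon, and capitals mark CCAAT or ATTGG.
Ccnb2 (chr9:70421555-70421684, minus strand): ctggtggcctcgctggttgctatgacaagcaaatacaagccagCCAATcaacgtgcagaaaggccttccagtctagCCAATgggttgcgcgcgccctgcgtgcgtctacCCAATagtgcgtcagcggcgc
Top2a (chr11:99024190-99024319, minus strand): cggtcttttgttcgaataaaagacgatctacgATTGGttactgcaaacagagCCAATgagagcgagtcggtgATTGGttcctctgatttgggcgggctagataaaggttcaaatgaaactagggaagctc
Hmmr (chr11:40733438-40733567, minus strand): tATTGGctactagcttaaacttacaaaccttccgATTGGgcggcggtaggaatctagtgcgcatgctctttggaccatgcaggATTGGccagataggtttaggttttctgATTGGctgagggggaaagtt
Birc5 (chr11:117849107-117849236, plus strand): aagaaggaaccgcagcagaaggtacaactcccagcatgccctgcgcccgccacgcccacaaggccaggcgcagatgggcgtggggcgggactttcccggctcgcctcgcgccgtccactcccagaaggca
H2-Aa (chr17:34287824-34287953, minus strand): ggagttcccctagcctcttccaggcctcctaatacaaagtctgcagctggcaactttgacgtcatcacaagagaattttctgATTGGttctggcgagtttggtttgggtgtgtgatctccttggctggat
H2-Eb1 (chr17:34305737-34305866, plus strand): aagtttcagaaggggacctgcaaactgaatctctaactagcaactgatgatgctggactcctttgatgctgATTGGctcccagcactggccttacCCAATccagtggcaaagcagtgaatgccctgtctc
Ascl2 (chr7:142969265-142969394, minus strand): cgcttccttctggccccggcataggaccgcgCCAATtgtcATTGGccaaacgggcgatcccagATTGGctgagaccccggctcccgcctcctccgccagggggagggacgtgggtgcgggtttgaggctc
In Ccnb2 the 3 boxes begin 33 bases apart, and in Top2a they begin 20 bases apart. In Hmmr, which encodes a spindle protein, the first and second begin 33 bases apart. Ascl2, 1 of the 5 crypt base genes with a box, has 3 in the window, of which the first and second begin 9 bases apart. A match is a run of letters and not a site shown to be bound in these cells. Lgr5 and Smoc2 have no single entry in the promoter table.

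Seen over all genes, promoter sequence differed between abundance classes. In the genes at 0 in every untreated library the median ratio of observed to expected CpG was 0.222, and at mean scaled counts of 1000 to 10000 it was 0.781. The motif GGGCGG, on either strand, was in 21.4% of the promoters of genes at 0 and in 67.1% of those at 10000 or more. The motif CCGGAAG was in 1.02% at 0 and 18.3% at 1000 to 10000, and was 13.9% at 10000 or more. TATAAA was in 11.2% of promoters at 0, in 6.13% at 1000 to 10000 and in 8.14% at 10000 or more. Matches of different motifs can overlap. Paneth genes had TATAAA in 4 of 9 promoters and enterocyte genes in 7 of 18, where 8.11% of all genes of the table with a single entry had it. Of the 4 Paneth genes, 3 were the alpha-defensins Defa20, Defa21 and Defa22, which are near-identical copies.

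The table split into abundance classes as follows. There were 264 genes at 0 in all 3 libraries, 882 with a mean above 0 and under 1 scaled count, and 5992 from 1 to 10, which held 0.0800% of the scaled counts in genes. The 4894 genes from 10 to 100 held 0.551% and the 5464 from 100 to 1000 held 7.30%. The 5120 genes from 1000 to 10000 held 48.6% and the 511 genes at 10000 or more held 43.5%. Protein-coding genes made up 44.4% of the class from 1 to 10 and 97.5% of the class at 10000 or more. Of 16352 protein-coding genes, 13125 had a mean of at least 10, against 1027 of 2385 processed pseudogenes and 352 of 938 lincRNAs.

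**Figure D1:**
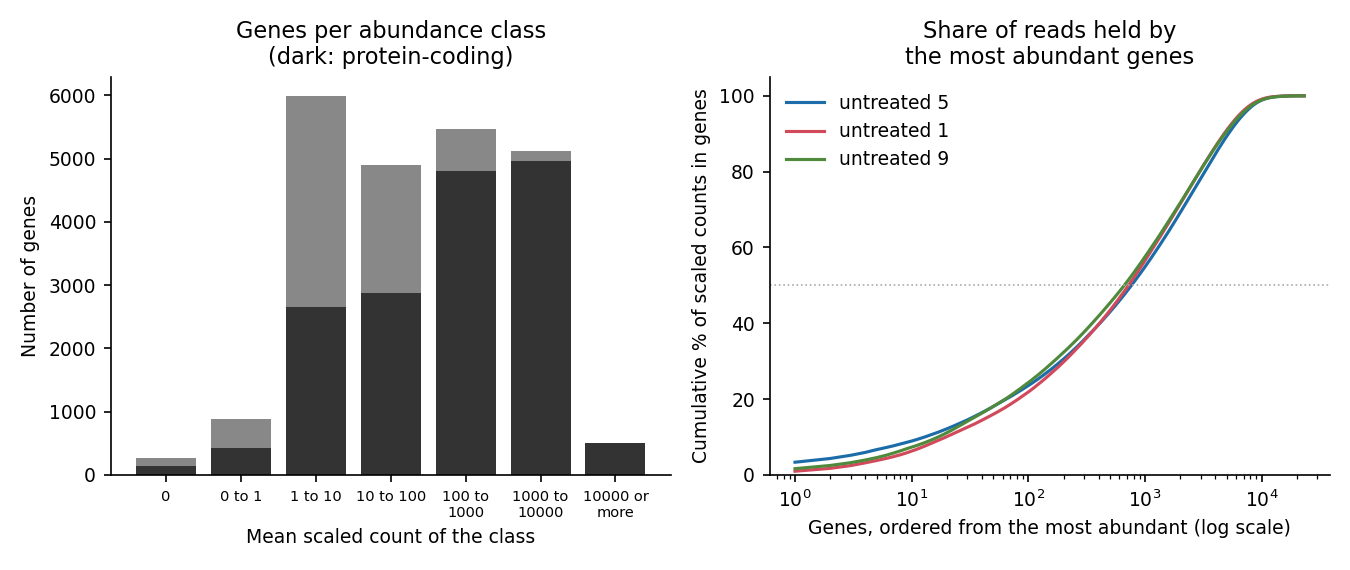
Left, number of genes in each class of mean scaled count over the untreated libraries, with protein-coding genes in dark. Right, cumulative percentage of scaled counts in genes (y) against genes ordered from the most abundant (x, log scale), 1 line per library; the lines cross 50% (dotted) at 765, 721 and 663 genes in untreated 5, 1 and 9.

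A small number of genes held a large share of the scaled counts, to which long transcripts add more reads. The 100 most abundant genes held 23.6%, 21.9% and 24.4% of the scaled counts in untreated 5, 1 and 9, and 58 genes were among the top 100 of all 3 libraries. The single most abundant gene held 3.35%, 0.975% and 1.65%. In untreated 5 and 9 that was mt-Rnr2, the large ribosomal RNA of the mitochondrion, which had 1007362, 168462 and 518352 scaled counts. In untreated 1 it was Cps1, the mitochondrial enzyme that fixes ammonia as carbamoyl phosphate, which had 111518, 337491 and 221503 scaled counts. Among nuclear genes the highest mean level was that of Defa24, followed by Krt18, a keratin of simple epithelia, with 145661, 250630 and 178269 scaled counts.

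Mitochondrially encoded genes took 6.81%, 1.35% and 4.07% of the scaled counts in untreated 5, 1 and 9, and 14 of 14 with a mean of at least 10 were lowest in untreated 1. Genes for the proteins of cytosolic ribosomes took 1.70%, 0.521% and 1.07%, lowest in untreated 1 for 80 of 81. Subunits of the respiratory chain encoded in the nucleus took 2.78%, 1.75% and 2.01%, lowest in untreated 1 for 55 of 77. Across all 15989 genes, 28.8% were lowest in untreated 1. All 3 libraries were untreated, so these shares differed between libraries of a single condition.

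Genes of the epithelial cytoskeleton and of cell adhesion were among the most abundant by mean scaled count. Krt8 and Krt19, keratins of simple epithelia, had 128359, 210125 and 191047 and 91045, 166359 and 111665 scaled counts. Cdh1, the adhesion protein E-cadherin, had 46121, 184672 and 137707. Dstn, which cuts actin filaments, had 111623, 128034 and 168961. Except for Dstn, these were lowest in untreated 5 and highest in untreated 1.

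The rest of the 20 most abundant genes by mean scaled count were of mixed function. F3, tissue factor of blood clotting, had 46950, 174202 and 131532 scaled counts, and Ceacam1, an adhesion protein, had 65217, 166412 and 110772. Hspa5, the main chaperone of the endoplasmic reticulum, had 55395, 150065 and 125485. All 3 were lowest in untreated 5, as were Clca3b and Klf6. Atp5b, a subunit of ATP synthase, had the lowest CV of the 20, at 104253, 112914 and 106871. Rn18s-rs5, an 18S ribosomal RNA locus, went the other way, at 228602, 25081 and 97024. By level, short transcripts entered the top 20: the small nuclear RNA Rn7sk at 17819, 3915 and 12375, the galectin Lgals2 at 9848, 4038 and 7282, and Tmsb4x, which binds actin monomers, at 6537, 3560 and 5729. These 3 were lowest in untreated 1.

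Paneth and goblet genes had higher median levels than the crypt base list. The 15 Paneth genes had a median level of 535, above 98.9% of genes, and their summed level was 15109, 20096 and 47487 in untreated 5, 1 and 9. Untreated 9 was highest for 14 of the 15, against 21.5% of all 15989 genes. Defa24, an alpha-defensin, had 40450, 37781 and 118256 scaled counts, and Lyz1, lysozyme, had 34590, 62150 and 125048. Itln1, a lectin that binds microbial sugars, had 16564, 54095 and 84321. Alpha-defensin genes are near-identical copies, so their single values are uncertain. Without untreated 9 the median level of the Paneth list was 305 in place of 535.

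Most goblet and enteroendocrine genes were also highest in untreated 9. Of 9 goblet genes averaging 10 scaled counts or more, 8 were highest in untreated 9, and of 17 enteroendocrine genes 12 were, where 21.5% of all genes were. The other 5 enteroendocrine genes were highest in untreated 5. Spink4, a goblet cell peptide, had 18186, 12735 and 43686 scaled counts, and Tff3, a trefoil peptide of mucus, had 23704, 3033 and 28080. Tff3 was low in untreated 1 and of similar size in the other 2. Agr2, which folds mucins, had 34260, 11014 and 55224. Gfi1, a transcription factor of secretory cells, was the goblet gene under 10, at 0, 0 and 2.06. Without untreated 9 the median level of the goblet list was 166 in place of 306.

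**Figure D2:**
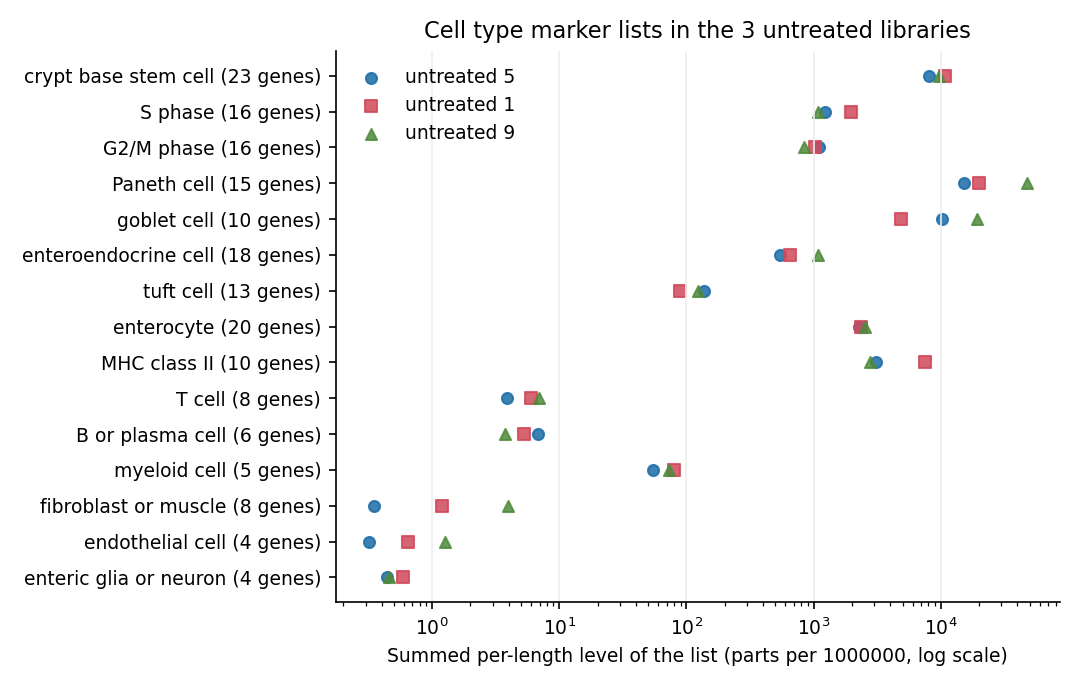
Summed per-length level of each marker list (x, parts per 1000000, log scale) in untreated 5 (circles), untreated 1 (squares) and untreated 9 (triangles), with the number of genes of each list in the table. Paneth, goblet and enteroendocrine lists are highest in untreated 9, and the lists of T, B, stromal, endothelial and glial cells lie at 6.95 or less.

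Of the enteroendocrine hormones, Chgb, a protein of secretory granules, had 3795, 10169 and 12701 scaled counts and Gcg, the glucagon gene, had 923, 1565 and 3756. Sct, secretin, had 541, 232 and 806. The 5 highest in untreated 5 were also lowest in untreated 1, and were chosen for naming after their values were seen. Gip had 1226, 12.0 and 191 scaled counts, Sst, somatostatin, had 183, 2.58 and 7.21, and Cck, cholecystokinin, had 417, 10.3 and 184. Neurog3 and Pax4, transcription factors of endocrine progenitors, had 190, 59.4 and 132 and 73.7, 24.9 and 66.9. Nts, neurotensin, was the member under 10. In these bulk samples a larger number of secretory cells and more secretory RNA per cell cannot be told apart.

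Tuft and enterocyte genes had lower median levels than the Paneth and goblet lists, at 6.76 and 20.4. The median of the enteroendocrine list was 16.0, below that of the enterocyte list. The 13 tuft genes summed to levels of 137, 88.3 and 124. Of the 13, 11 averaged 10 scaled counts or more, where 15989 of 23127 genes did, and Il25 and Gnat3 were under it. Rgs13, Avil and Sh2d6 were the highest by level. The 20 enterocyte genes summed to 2266, 2337 and 2538, with Vil1 and Fabp2 among the highest by level. Fabp2, a fatty acid binding protein, had 6086, 2205 and 5033 scaled counts, low in untreated 1, and Krt20, a keratin of differentiated cells, had 1498, 4757 and 7142, low in untreated 5. Slc15a1, a peptide transporter, was the enterocyte gene under 10.

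Markers of cells from outside the epithelium had low summed levels, with a few members well above the floor of 3 reads. The 8 T cell genes summed to levels of 3.84, 5.98 and 6.95, with Cd3e, Cd3d, Cd4, Gzma and Gzmb under a mean of 10 scaled counts and Lck, a kinase of T cells, at 87.4, 130 and 137. The 6 B and plasma cell genes summed to 6.77, 5.24 and 3.76, with Cd79a at 59.0, 40.4 and 41.2 scaled counts. The 8 fibroblast and muscle genes summed to 0.351, 1.20 and 3.92, and the 4 endothelial genes to 0.317, 0.643 and 1.25. The 5 myeloid genes summed to 55.0, 80.2 and 72.7, mostly from Cd14, a co-receptor for bacterial lipopolysaccharide that had 924, 1145 and 1059 scaled counts. Cd68, a lysosomal protein abundant in macrophages, had 120, 204 and 216. Csf1r, a receptor of macrophages, had 36.9, 0.860 and 10.3, and C1qa had 2.11, 3.44 and 22.7. The fibroblast and muscle genes had their highest sum in untreated 9, with Acta2 at 4.21, 8.60 and 50.5.

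The receptors through which crypt cells read their niche were compared by level. Among R-spondin receptors and the ubiquitin ligases they act on, Rnf43 was at 31.2, 84.5 and 48.7 and Lgr5 at 23.5, 80.3 and 47.1. The ratio of Rnf43 to Lgr5 was 1.33, 1.05 and 1.03. Both were lowest in untreated 5 and highest in untreated 1. Lgr4, a second R-spondin receptor, was at 17.3, 12.4 and 13.8, and Lgr6 was under 10 scaled counts. The Wnt receptors were low: 16 genes summed to levels of 36.4, 33.8 and 25.6. Fzd6, a Frizzled receptor, led with 5.48, 8.21 and 3.97, but was first in untreated 1 only. Ryk, at 7.29, 4.67 and 4.93, was first in the other 2, and the co-receptor Lrp6 was the third by mean level. Fzd8, Fzd9, Fzd10 and Ror1 had means under 10 scaled counts.

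The ligands of this pathway were fewer. Of 20 Wnt and R-spondin genes in the table, 12 had a mean under 10 scaled counts. Over all genes, 15989 of 23127 had a mean of 10 or more. Wnt3, a Wnt of Paneth cells, was highest by level and had 189, 243 and 514 scaled counts. Wnt3a had 0, 0.860 and 188 scaled counts, and Rspo1 had 0, 0 and 83.4 (chosen after its values were seen), so both were read in untreated 9 and at or under the 3-read floor in the other libraries. Their means rest on that library alone. Whether these reads came from the same source as the stromal markers in that library was not tested.

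Of the ErbB receptors, Erbb3 had the highest level, at 74.9, 271 and 268, which was 8.19, 10.7 and 13.3 times that of Egfr. Erbb3 lacks an active kinase of its own and signals in pairs with other ErbB receptors. It was low in untreated 5, as was Egfr, at 9.14, 25.2 and 20.1. Erbb2, its usual partner, was at 12.0, 23.1 and 12.9, and Erbb4 had 0, 0 and 1.03 scaled counts. Among EGF family ligands, Areg was at levels of 692, 204 and 253, highest in untreated 5, and Hbegf at 206, 348 and 310, lowest there. Btc, betacellulin, was at 79.7, 131 and 103, and Nrg1 and Nrg3 were under 10 scaled counts.

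Notch1 was the main Notch receptor by level, at 5.92, 8.19 and 6.65, and Notch2, Notch3 and Notch4 were lower in each library. The Notch ligand Dll1 was at 9.31, 15.8 and 25.2 and Dll4 at 3.46, 5.46 and 10.4, both highest in untreated 9, with Jag1 at 2.21, 1.55 and 1.70. Dll3 was under 10 scaled counts. Among the receptors of the TGF-beta and BMP families, Tgfbr1 was at levels of 51.9, 145 and 84.2, Tgfbr2 at 30.2, 61.0 and 47.6 and Bmpr1a at 23.8, 17.4 and 10.8. Bmpr1a, through which BMP restrains the crypt, was highest in untreated 5, where both TGF-beta receptors were lowest. Bmpr1b was under 10 scaled counts.

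**Figure D3:**
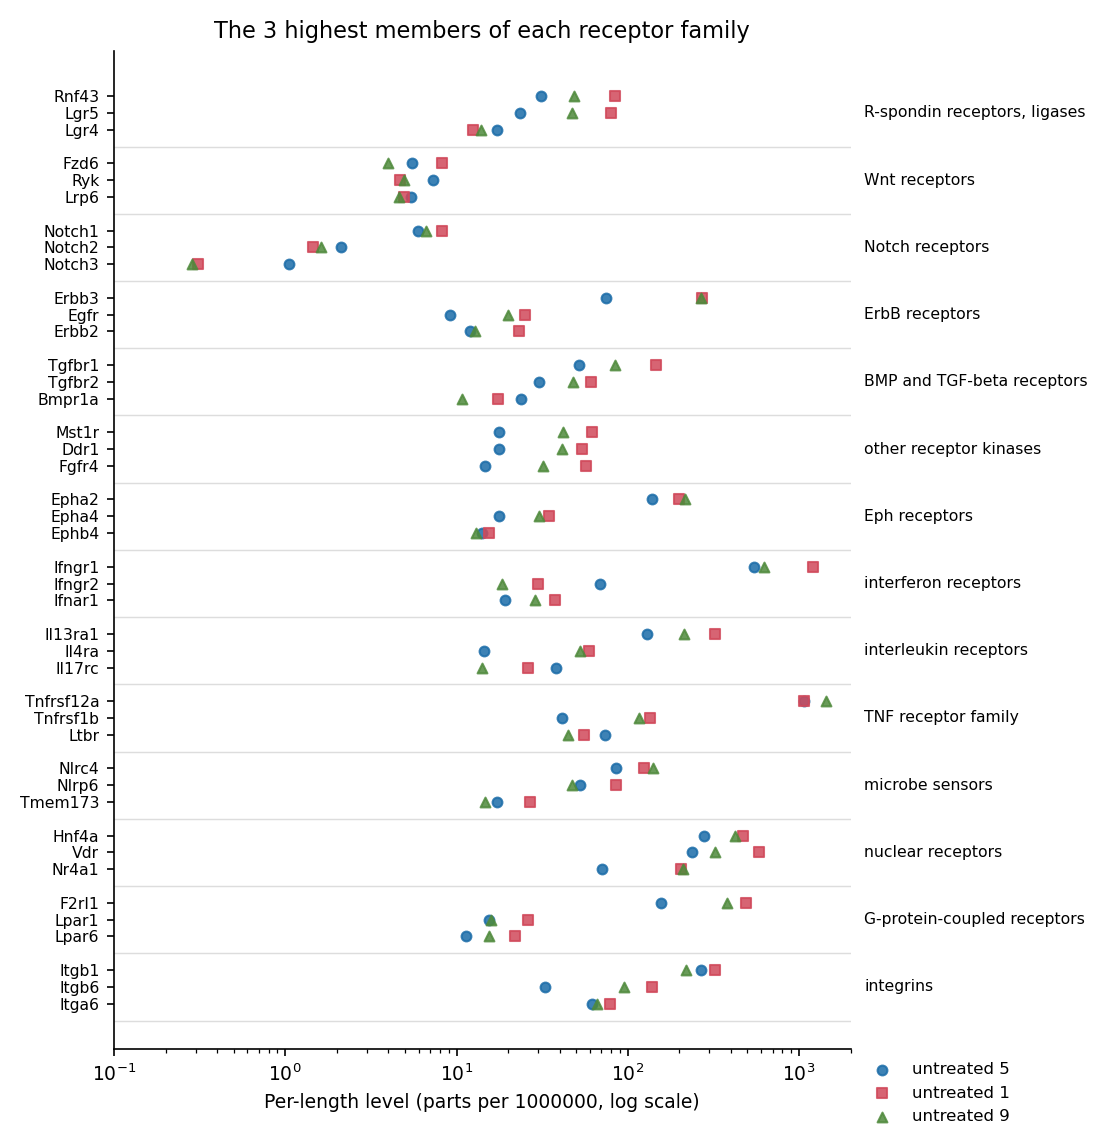
Per-length level (x, parts per 1000000, log scale) of the 3 highest members of each receptor family in untreated 5 (circles), untreated 1 (squares) and untreated 9 (triangles). Tnfrsf12a and Ifngr1 lie farthest to the right among the genes drawn, and the Wnt and Notch receptors lie at 8.21 or less.

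Other receptor kinases were led by Mst1r, Ddr1 and Fgfr4, although Met, the receptor of hepatocyte growth factor, was first in untreated 5. Mst1r, the receptor of macrophage stimulating protein, was at levels of 17.8, 62.2 and 42.0, and the collagen receptor Ddr1 was at 17.7, 54.4 and 41.2. Fgfr1, Pdgfra, Flt1, Kdr, Flt4 and Axl, which serve mainly mesenchymal or endothelial cells, had means under 10 scaled counts. Epha2 led the Eph receptors, which sort cells by contact, at 138, 200 and 215, and was 27.9, 31.4 and 49.7 times as high as Ephb2, an Eph receptor of the crypt base. Efna1, a ligand of EphA receptors, led the ephrins at 73.7, 119 and 85.7.

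For cytokines, the 2 chains of the IFNg receptor stood far apart by level before any treatment. Ifngr1, the ligand-binding chain, was at 547, 1211 and 622, and Ifngr2, the signalling partner, was at 68.7, 29.7 and 18.6. The ratio was 7.96, 40.7 and 33.5, lowest in untreated 5, where Ifngr2 was highest. Ifnar1, a chain of the type I interferon receptor, was at 19.1, 37.6 and 28.6. All 6 interferon receptor genes averaged 10 scaled counts or more, where 15989 of 23127 genes did.

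Among interleukin receptors the chains of the IL-4 and IL-13 receptor led. Il13ra1 was at levels of 129, 323 and 214 and Il4ra at 14.4, 59.1 and 52.3, both lowest in untreated 5. Il17rc, a chain of the IL-17 receptor, was at 37.9, 26.1 and 14.2. Il2ra, Il2rb and Il2rg, chains used by lymphocytes, were under 10 scaled counts, as were Il1rl1, Il10ra, Il18r1 and Il27ra. In the TNF receptor family Tnfrsf12a, the receptor of TWEAK, was at 1070, 1070 and 1445, which was 38.0, 23.1 and 32.1 times the level of Tnfrsf1a, the main TNF receptor. Tnfrsf1b was at 41.5, 135 and 116.

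Microbe sensors were led by inflammasome genes. Nlrc4, which answers to flagellin and secretion systems through Naip proteins, was at levels of 84.9, 124 and 140, and Nlrp6 was at 52.3, 85.8 and 47.3. Tmem173, the DNA-sensing adaptor STING, was at 17.2, 26.9 and 14.6. Nlrp3 and Tlr6 were under 10 scaled counts. Nuclear receptors were led by Hnf4a at 278, 473 and 422, the vitamin D receptor Vdr at 238, 583 and 322, and Nr4a1 at 70.6, 204 and 210. F2rl1, a receptor cut by proteases, led the G-protein-coupled receptors at 156, 489 and 381. Itgb1, a shared integrin beta chain, led the integrins at 267, 322 and 218, while the leukocyte chains Itgb2, Itgb7, Itga4 and Itgax were under 10 scaled counts.

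Transcription factors of the intestine were all read: 30 of 30 averaged 10 scaled counts or more, where 15989 of 23127 genes did. Their median level was 23.4. Myc, a driver of growth under Wnt control, was at 1196, 2302 and 1498 and had the highest level of the list. Elf3, an ETS factor of epithelia, was at 370, 437 and 383. Genes that mark position along the gut were led by Osr2, Fabp6 and Onecut2. Fabp6, an ileal bile acid binding protein, had 220, 24.1 and 45.3 scaled counts and was highest in untreated 5. Hox genes were low: 6 of the 23 in the table averaged 10 scaled counts or more, where 15989 of all 23127 genes did. They were led by Hoxb9 at levels of 2.22, 3.82 and 5.01. Another 16 Hox symbols were not in the table.

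Immediate early genes, which respond within minutes to growth signals and to handling, were high in cells that had received no IFNg. Of 20 immediate early and heat shock genes, 18 averaged 1000 scaled counts or more, where 5631 of 23127 genes did. Fosl1 was at levels of 1105, 2015 and 1876, Fos at 763, 1177 and 1337, and Junb at 751, 978 and 694. The effect of sorting and cell isolation on these genes was not tested. Antigen presentation genes were also present: Cd74, the invariant chain of MHC class II, had 44580, 107878 and 40116 scaled counts, and H2-Ab1 had 10316, 21509 and 8616. H2-Eb1, a class II beta chain with 2 CCAAT boxes among the printed bases, had 4903, 4457 and 3122. H2-Oa and H2-Ob, class II genes mainly of lymphocytes, were under 10 scaled counts. The part of leukocytes in the class II values was not tested; the summed levels of the T cell, B cell and myeloid lists in the 3 libraries are those given above, with Cd14 and Cd68 the highest members. In mucosal defence, Pigr, which carries antibodies across the epithelium, was at levels of 1351, 3413 and 2292, Lypd8 at 1604, 760 and 1407 and Dmbt1 at 252, 1131 and 780.

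The sex-linked genes set untreated 1 apart. Xist, the RNA that silences an X chromosome, had 16.9, 8336 and 11.3 scaled counts in untreated 5, 1 and 9. On the Y chromosome Ddx3y had 4219, 1.72 and 6346, Eif2s3y 2669, 0 and 3669, Uty 1535, 0 and 2295, and Kdm5d 1224, 0 and 1354. Tsix had 0, 102 and 39.1, but it lies across Xist on the other strand, and reads of the 2 cannot be told apart in libraries that do not mark strand. Xist is transcribed in female cells and the Y chromosome is carried by males, so untreated 1 differed from the other 2 in sex and did not come from the same animals. The IFNg library numbered 2 also had Xist, at 6147 scaled counts, and the IFNg libraries numbered 6 and 10 had 0 and 15.8. Wherever untreated 1 differed from the other 2, sex and library cannot be told apart. The values of untreated 1 also ran with transcript length, as described below, and the part of length in them was not tested.

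Over the 15989 genes averaging 10 scaled counts or more, the median SD of log2(scaled count + 1) was 0.452, the median CV was 31.1%, and 57.9% of genes lay within 2-fold over all 3 libraries. Across genes, Pearson correlations of log2 values were 0.966 between untreated 1 and 9, 0.927 between untreated 5 and 1 and 0.930 between untreated 5 and 9; genes are not independent replicates. The biological coefficient of variation from edgeR was 42.1%, and it was 30.8% without untreated 5, whose removal also took the median SD to 0.280. The median SD fell from 0.680 at means of 10 to 100 to 0.369 at 1000 to 10000, and was 0.403 at 10000 or more. In the class from 1000 to 10000 the variance between libraries was 160 times what counting alone gives in the median gene.

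**Figure D4:**
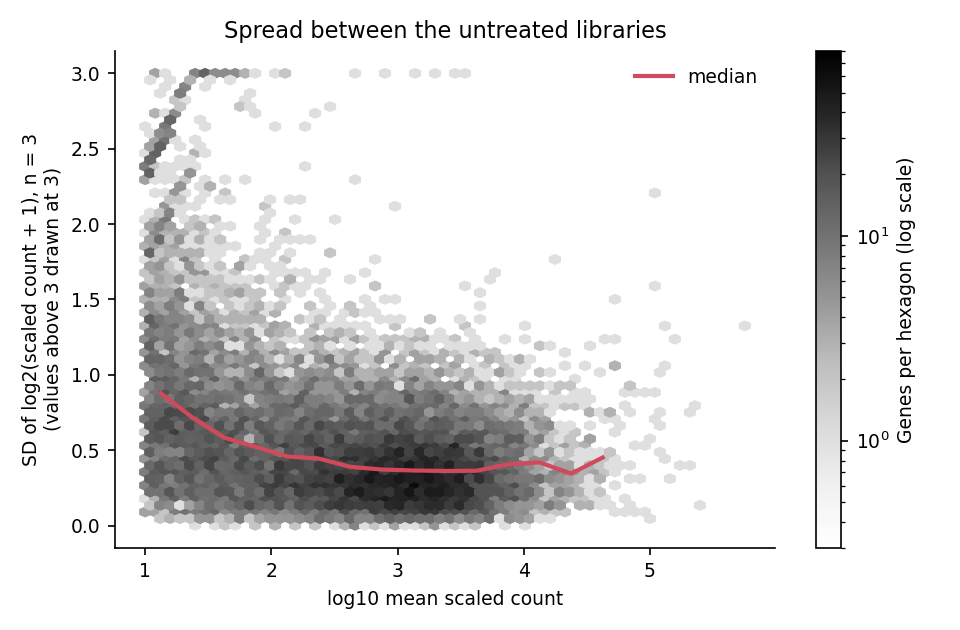
SD of log2(scaled count + 1) over the 3 untreated libraries (y, values above 3 drawn at 3) against log10 mean scaled count (x), with hexagons shaded by number of genes on a log scale and the median as a line. The median falls with abundance up to means near 1000, and single genes at high means lie well above it.

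Some abundant genes varied widely. Leaving out the sex-linked genes, the largest SD of log2 among genes with a mean of at least 1000 was that of Cldn4, a tight junction protein, which had 12291, 254078 and 58902 scaled counts. All 3 libraries differed here, with a 20.7-fold range. Habp2, a serine protease, had 113, 1385 and 1522, and Plat, tissue plasminogen activator, had 1130, 10350 and 6820. Thbs1, a matrix glycoprotein among the 20 most abundant genes, had 36050, 153564 and 190879. These 3 were low in untreated 5, as were Timp3, Flna, Clu and Reg4. Reg3b, an antibacterial lectin, and Akr7a5, an aldehyde reductase, went the other way, at 9296, 1472 and 2455 and at 3824, 859 and 655. For Akr7a5 the IFNg libraries 6, 2 and 10 had 3513, 4265 and 3388, near untreated 5, so that untreated 1 and 9 were the low ones of the 6. Tff3, Zg16, Defa21 and Defa22 were low in untreated 1.

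The genes with the lowest CV at a mean of at least 1000 were not markers of any lineage used here. Acaa2, an enzyme of fatty acid oxidation, had 9847, 9790 and 9911 scaled counts, a CV of 0.612% where counting alone gives 0.994%. Chd4, a chromatin remodeller, had 3389, 3411 and 3436, and Mtif2, a mitochondrial translation factor, had 1923, 1897 and 1917. The other 7 of the 10 with the lowest CV, which ended with Wdr74 at 1.21%, were Slc25a51, Ddrgk1, Snap29, Pcna-ps2, Sipa1l3, Dscr3 and Wdr74. Pcna-ps2 is a processed pseudogene named after Pcna, a member of the S phase list.

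Most large departures belonged to untreated 5. At least 4-fold above both other libraries were 153 genes in untreated 5 (0.957% of 15989), 22 in untreated 1 (0.138%) and 109 in untreated 9 (0.682%). At least 4-fold below both were 413 (2.58%), 172 (1.08%) and 40 (0.250%). Over all 13125 protein-coding genes with a mean of at least 10, the values of untreated 5 also ran with transcript length. The Spearman correlation of its log2 difference with length was -0.267 against untreated 1 and -0.183 against untreated 9. Protein-coding genes were put into 5 classes of about equal number by their longest transcript. In the shortest class, of 306 to 1964 bases, the median log2 difference of untreated 5 from the mean of the other 2 was 0.39, and in the longest class it was -0.21. In untreated 1 it was -0.25 in the shortest and 0.24 in the longest, and in untreated 9 it was -0.10 and -0.03. Long genes such as Thbs1, Flna and Timp3 were low in untreated 5, and so were the shorter Cldn4 and Reg4. The part of length in their values was not tested.

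**Figure D5:**
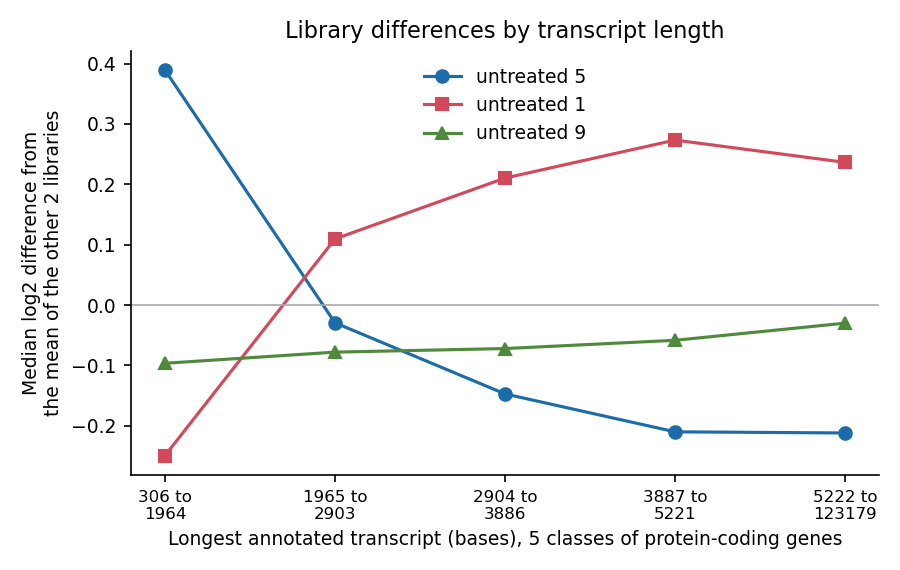
Median log2 difference of each untreated library from the mean of the other 2 (y) in 5 classes of protein-coding genes by longest annotated transcript (x, bases). Untreated 5 runs from 0.39 in the shortest class to -0.21 in the longest, untreated 1 runs the other way, and untreated 9 stays between -0.10 and -0.03.

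The departure of untreated 5 was compared with that of IFNg 6, which carries the same title tag and the next end number. End numbers also run on from untreated 1 to IFNg 2 and from untreated 9 to IFNg 10. Whether such pairs shared animals is not stated. Within the tag GFP3, Xist was high in untreated 1 and IFNg 2 and not in untreated 9 and IFNg 10. Of the 413 genes at least 4-fold low in untreated 5, 303 (73.4%) were lower in IFNg 6 than in both other IFNg libraries, where 43.8% of all 15989 genes were. Of the 153 genes at least 4-fold high, 51 (33.3%) were higher in IFNg 6 than in both, where 39.3% of all genes were. The low side was thus above its background share, and the high side was below it. On the high side, 92 of the 153 genes (60.1%) were higher in all 3 IFNg libraries than in both untreated 1 and untreated 9, where 16.0% of all genes were. Being low in untreated 1 and 9 is part of how the 153 were chosen, so the share is a description only. H2afj, a histone, had 3791, 771 and 680 scaled counts in untreated 5, 1 and 9 and 4199, 3605 and 3813 in IFNg 6, 2 and 10. For genes such as H2afj the libraries that stood apart among the 6 were untreated 1 and 9. On the low side, 134 of the 413 (32.4%) were lower in all 3 IFNg libraries than in both untreated 1 and untreated 9, against 19.4% of all genes. Being high in untreated 1 and 9 is likewise part of how the 413 were chosen, so that share is also a description only. The median difference by length also ran the same way in IFNg 6, from 0.45 in the shortest class to -0.49 in the longest. In IFNg 10 it ran from -0.35 to 0.35, although untreated 9, of the same tag, was nearly flat, and in IFNg 2 it ran from -0.14 to 0.10. The tag, any shared origin of the numbered pairs, the transcript length and the library cannot be told apart as sources of the spread.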

How the data were processed

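Per the labels' protocols, a SMART-Seq v4 kit made cDNA from 2 ng of total RNA per library over 12 PCR cycles, and 10 ng of cDNA went through a KAPA Hyper preparation with 8 cycles. This chemistry does not mark strand and carries no molecular identifiers, so floors take in counting error alone. What the authors deposited is a single table with a signal for each gene, the scaled count, made by dividing reads by a library's size factor, going by the table's name. The genome build mm10 and the tools STAR 2.5.0a, cutadapt 1.6, DESeq 1.22.1 and HTSeq 0.5.3 appear, without roles, per the submitters' processing notes; annotation and strand setting are not stated. Whole reads were recovered from the steps of the values in 100% of 138762 cases, to a tolerance of 0.01 read. The 4 rows of reads given to no gene were left out; in the untreated libraries reads with several alignments took 18.5% to 24.5% of all rows' values, so genes with near-identical copies or overlapping neighbours are uncertain.

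Merged exon lengths came from GENCODE M21 (23006 of 23127 genes). The biological coefficient of variation was estimated with edgeR 4.0.16 in R 4.3.3 on recovered reads and checked on simulated data, with DESeq2 1.42.0 size factors as an alternative. The filter was a mean of at least 10 scaled counts and the pseudocount was 1. Promoter sequences are those of RefSeq on GRCm38.p6. The libraries, the 42 gene lists (568 of 623 symbols in the table) and the choices below were made with earlier results of these data known. Named genes were the 4 markers, the 20 highest by mean scaled count and by level, the 3 highest of each list by level, members of receptor and ligand lists under 10, the 20 largest SD and 10 smallest CV at a mean of at least 1000, and sex-linked genes. Other named genes, such as Msi1, Axin2, Znrf3, Krt20, Csf1r, Lck, Cd79a, Cd68, Met and, outside the lists, H2afj, were chosen after their values were seen. One gene that the rule names is not reported here.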

Additional observations from a re-analysis of the deposited data

How the results depend on the processing

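Of 85 alternatives over 20 results, 73 stayed within 1.5 times the count, 1 SD or the 95% binomial interval of a share. For levels and the share of the top 100 genes, the SD was that between libraries. Leaving out 1 of 3 libraries cannot move a mean by 1 such SD. Those checks on single-gene levels and on that share were thus kept in advance and show no stability. For the median SD of log2 and the biological coefficient of variation, the SD was that of the values with 1 library left out. Without mitochondrially encoded genes, the 100 most abundant genes held 20.8% in place of 23.3%. With the longest transcript as the length, levels were 6486 for Olfm4, 85.5 for Lgr5 and 177 for Smoc2, in place of 7693, 50.3 and 127. The median level of crypt base genes was 35.3 to 51.9 when 1 library was left out, and that of Wnt receptors was 1.66 in place of 1.05 with members at a mean of at least 10 only. The median SD of log2 was 0.280 to 0.462 when 1 library was left out, 0.569 for genes with a mean of at least 1 and 0.570 with no filter. The biological coefficient of variation was 30.8% to 48.2% when 1 library was left out. Only 16 genes were at least 8-fold high in untreated 5. Of these, 4 (25.0%) were highest in IFNg 6 among the IFNg libraries, in place of 33.3% at 4-fold. The share over all genes was 39.3%. The cause was not tested. Scaling each library to the same number of reads in genes cannot change levels or shares within a library. It could change the numbers of genes per class, the library in which a gene is highest and the spread, and it moved none of these. The promoter alternative with the first listed entry was chosen after seeing the data. No paired analysis was possible because the untreated libraries form 1 group and no contrast was fitted. With 3 libraries no sample was tested as an outlier.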
